A study of Mus musculus with 6 samples.

Results

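The genes described here encode the major histocompatibility complex (MHC) of the mouse and the proteins that prepare peptides for it. They were chosen by symbol: every gene whose symbol starts with H2-, together with B2m, Tap1, Tap2, Tapbp, Tapbpl, Erap1, Cd74, Ciita, Nlrc5, Psmb8, Psmb9, Psmb10, Psme1 and Psme2, where the platform annotation gives a probe set exactly 1 gene symbol. The rule found 36 genes of the 17097 measured, each represented by its probe set of highest mean over all 6 arrays. Of these, 16 were class I genes, 12 were class II genes and 8 were processing genes. B2m, Tap1 and Tap2 were not analysed here.

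The cells were CD4+CD25- T cells of female C57BL/6 mice, and their RNA was read on 6 single-colour arrays, with 2 arrays for each of 3 plate coatings. BTNL2 wells were coated with 2 µg/ml of anti-CD3, 3 µg/ml of a B7-2 Fc fusion protein and 11 µg/ml of a BTNL2 Fc fusion protein. B7-2 wells carried the same anti-CD3 and B7-2 with control IgG, and anti-CD3 wells carried anti-CD3 with control IgG. All wells held equal numbers of cells with 0.36 ng/ml of TGF-beta and 10 ng/ml of IL-2, and the cells were harvested after 4 days. The labels give the source once as spleen and once as spleen and lymph nodes. They state duplicate cultures, and nothing says that the duplicates came from different animals. Each p-value rests on the spread between duplicate wells, shared by the 3 groups and moderated over all genes, and that spread may be technical. Anti-CD3 triggers the T cell receptor, B7-2 (CD86) is a ligand of the costimulatory receptor CD28 and of CTLA-4, and BTNL2 is a butyrophilin-like protein that restrains T cell activation.

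MHC class I molecules sit on nearly all nucleated cells and present peptides cut from proteins of the cytosol by the proteasome, which interferon gamma switches to its immunoproteasome form. These peptides enter the endoplasmic reticulum, are trimmed there and are loaded with the help of tapasin. MHC class II molecules are made mainly by B cells, dendritic cells and other antigen-presenting cells, and load peptides from endocytosed proteins with the help of the invariant chain and H2-DM. NLRC5 is the transactivator of class I genes and CIITA that of class II genes. Activated human T cells make class II molecules, whereas mouse T cells are generally held not to do so.

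Values below are RMA intensities on a linear scale, with log2 changes from a limma fit over all 6 arrays. A gene was called when its Benjamini-Hochberg adjusted p over all 17097 genes was under 0.05. Median array intensities lay between 18.4 and 18.8, and the highest nonspecific control probe set between 5.02 and 5.99. Of the 36 genes, 4 lay below the array median on every array (H2-Ea, H2-M10.1, H2-M9 and H2-Q2). Duplicate arrays correlated at 0.997 to 0.9976 over all genes. Because probe sets differ in their response, an intensity is compared between arrays and never between genes. With 2 arrays a group, values that do not overlap are common. Over all genes, 58.9% did not overlap between BTNL2 and B7-2 wells and 60.1% between B7-2 and anti-CD3 wells. Between BTNL2 and anti-CD3 wells the share was 63%.

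With BTNL2 added to B7-2, 16 of the 36 genes rose and 4 fell, which makes 55.6% called. Over all genes 20.4% were called in this comparison, 9.52% higher and 10.8% lower. With B7-2 added to anti-CD3, 0 of the 36 rose and 19 fell, 52.8% called, against 24.5% of all genes (11.2% higher and 13.3% lower). At an unadjusted p under 0.05, 1 of the 36 was higher in that comparison and 22 were lower. BTNL2 wells set against anti-CD3 wells had 9 genes higher and 8 lower, 47.2% called, against 30.4% of all genes (14.2% higher and 16.2% lower). The genes of this group are brighter than most. Among the 11881 genes left after dim genes were dropped (those whose mean was under the 40th percentile over all the probe sets), 32.4%, 38.8% and 45.7% were called in the 3 comparisons in the same order. The median log2 change of the 36 genes was 0.27 for BTNL2 over B7-2, -0.37 for B7-2 over anti-CD3 and 0.03 for BTNL2 over anti-CD3, with medians over all genes of -0.01, -0.00 and -0.00. The first and the second comparison share the B7-2 arrays, so an error of those arrays would enter both with opposite signs.

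**Figure D1:**
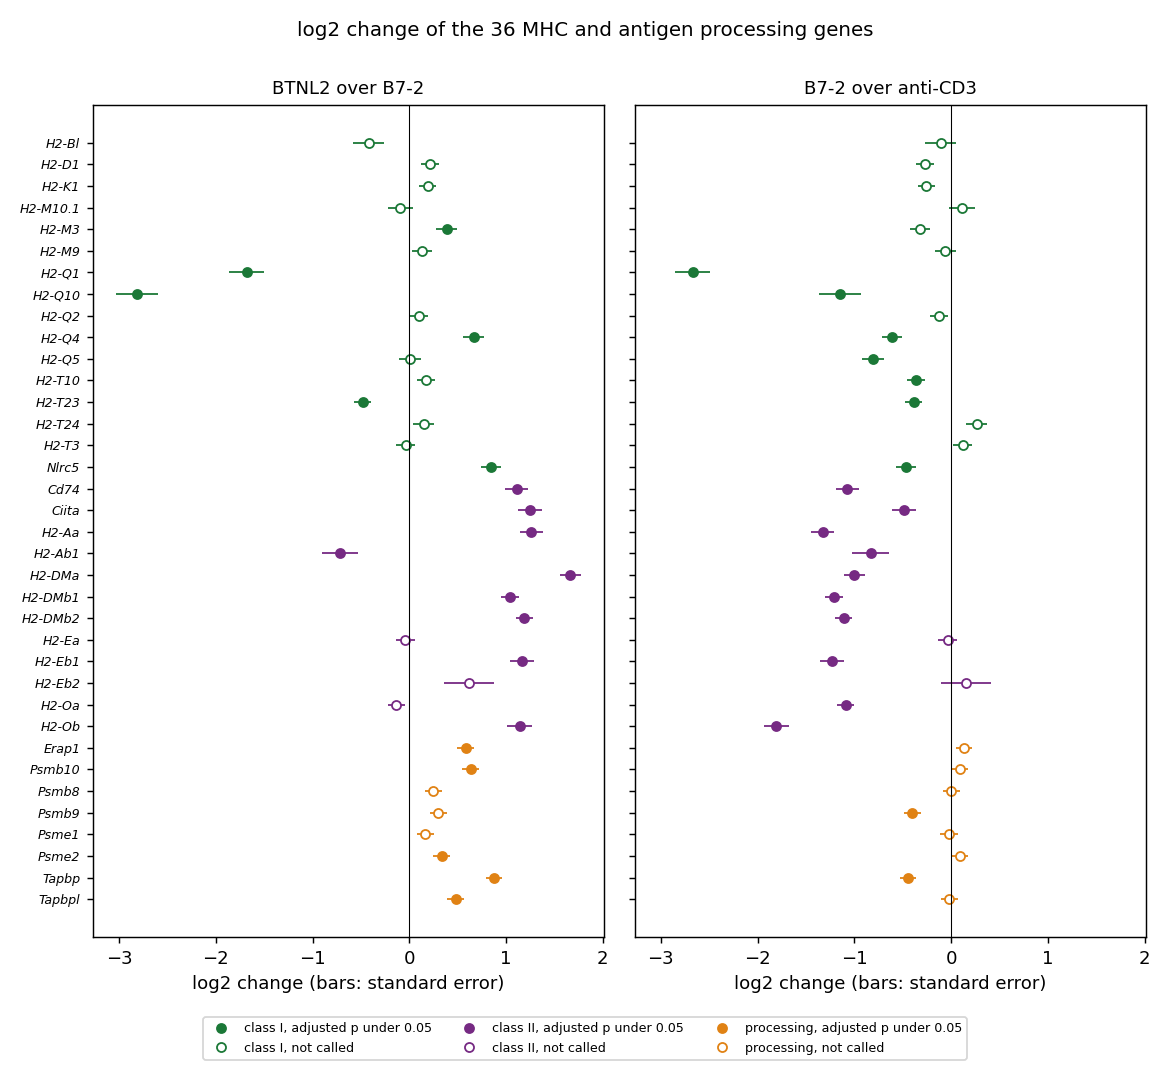
Log2 change (horizontal axis) of each of the 36 genes for BTNL2 over B7-2 (left) and B7-2 over anti-CD3 (right). Points are limma estimates from 2 arrays a group, bars are standard errors, filled points have an adjusted p under 0.05, and colours mark class I, class II and processing genes. On the left 8 of 12 class II genes are called higher and H2-Ab1 is called lower; on the right 10 of 12 are called lower.

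Most class II genes were higher in BTNL2 wells than in B7-2 wells and lower in B7-2 wells than in anti-CD3 wells. Of the 12 genes, 8 rose and 1 fell with BTNL2, 75% called, with a median log2 change of 1.13. With B7-2 added to anti-CD3, 0 rose and 10 fell, 83.3% called, with a median of -1.08. In BTNL2 wells against anti-CD3 wells 2 were higher and 3 lower, 41.7% called, with a median of -0.07. Over all genes 20.4%, 24.5% and 30.4% were called in these comparisons in this order, and 32.4%, 38.8% and 45.7% with dim genes dropped. The summed intensity of the 12 genes was 5735 and 6294 on the BTNL2 arrays, 3466 and 3608 on the B7-2 arrays, and 7554 and 6681 on the anti-CD3 arrays. The samples are bulk cultures, so fewer cells that express these genes and less RNA per cell cannot be told apart.

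The regulator Ciita, whose protein is needed for class II transcription, had intensities of 24.4 and 27.6 in BTNL2 wells, 11.2 and 10.6 in B7-2 wells, and 16.9 and 13.9 in anti-CD3 wells. The 3 groups did not overlap, and BTNL2 wells were highest. Ciita rose 2.38-fold with BTNL2 added to B7-2 (log2 change 1.25 ± 0.12 SE, limma adjusted p = 0.000567). It fell 1.40-fold with B7-2 added to anti-CD3 (-0.49 ± 0.12, adjusted p = 0.0275) and was 1.69-fold higher in BTNL2 than in anti-CD3 wells (0.76 ± 0.12, adjusted p = 0.00339). All Ciita values were low, and its other 2 probe sets were not called in any comparison. The mean over its probe sets moved the 3 changes to 0.71, -0.32 and 0.39, and an offset of 16 before the log moved them to 0.64, -0.22 and 0.42; the fall was lost under both (adjusted p = 0.0699 and 0.0573).

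The chains that present peptide were measured as H2-Aa and H2-Ab1, which form the A molecule, and as H2-Ea, H2-Eb1 and H2-Eb2 of the E molecule. H2-Aa read 292 and 329 in BTNL2 wells, 128 and 131 in B7-2 wells, and 359 and 294 in anti-CD3 wells. BTNL2 and anti-CD3 values overlapped and both B7-2 arrays were far below them. H2-Aa rose 2.40-fold with BTNL2 (1.26 ± 0.12, adjusted p = 0.000508) and fell 2.51-fold with B7-2 (-1.33 ± 0.12, adjusted p = 0.000647). Its 3 probe sets were all called in these directions, at 1.17 to 1.36 and at -1.33 to -1.12.

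The beta chain gene H2-Ab1 did not follow its partner. It read 621 and 939 in BTNL2 wells, 1271 and 1236 in B7-2 wells, and 2395 and 2074 in anti-CD3 wells. The order was BTNL2 lowest and anti-CD3 highest, without overlap, and the 2 BTNL2 arrays lay apart (mean 780.0 ± 225 SD, n = 2). H2-Ab1 fell 1.64-fold with BTNL2 added to B7-2 (-0.71 ± 0.19, adjusted p = 0.0368), fell 1.78-fold with B7-2 added to anti-CD3 (-0.83 ± 0.19, adjusted p = 0.0183), and was 2.92-fold lower in BTNL2 than in anti-CD3 wells (-1.55 ± 0.19, adjusted p = 0.000953). All 3 of its probe sets were called lower in each comparison when every probe set was tested, at -1.11 to -0.71 for BTNL2 over B7-2. The call against B7-2 was lost with only the 4 arrays compared (adjusted p = 0.0564) and in 5 of the 6 fits that left out 1 array (0.0564 to 0.132), and without BTNL2 replicate 1 the change was -0.42 (0.0995). The fall with B7-2 was lost whichever of the 4 arrays compared was left out (0.0507 to 0.105).

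H2-Eb1 read 447 and 508 in BTNL2 wells, 207 and 219 in B7-2 wells, and 549 and 456 in anti-CD3 wells. As for H2-Aa, BTNL2 and anti-CD3 values overlapped and B7-2 values were lower than both. H2-Eb1 rose 2.24-fold with BTNL2 (1.16 ± 0.12, adjusted p = 0.000736) and fell 2.35-fold with B7-2 (-1.23 ± 0.12, adjusted p = 0.000813). C57BL/6 mice carry a deletion in the promoter of H2-Ea and make no E alpha chain, and H2-Ea read between 10.5 and 12.1 on all 6 arrays, below the array median, and was not called. H2-Eb2 read 14.9 and 25.1 in BTNL2 wells, 14.7 and 10.9 in B7-2 wells, and 10.2 and 12.5 in anti-CD3 wells, with the BTNL2 values above the others and the B7-2 and anti-CD3 values overlapping. It was not called (adjusted p = 0.0613 to 0.727), except without BTNL2 replicate 1 (0.99 over B7-2 and 1.15 over anti-CD3, adjusted p = 0.0355 and 0.0138) and, over anti-CD3, with an intensity trend in the prior variance (0.0137).

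Among the chaperones of class II loading, Cd74 encodes the invariant chain, which holds new class II molecules together and blocks their groove. Cd74 read 1873 and 2158 in BTNL2 wells, 863 and 1004 in B7-2 wells, and 2044 and 1873 in anti-CD3 wells. Again only the B7-2 arrays stood apart. Cd74 rose 2.16-fold with BTNL2 (1.11 ± 0.12, adjusted p = 0.00083) and fell 2.1-fold with B7-2 (-1.07 ± 0.12, adjusted p = 0.00119).

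H2-DM exchanges the invariant chain's remnant for antigenic peptide. Its alpha chain gene H2-DMa had the largest log2 rise of the 36 genes for BTNL2 over B7-2, and read 1818 and 1663 in BTNL2 wells, 543 and 556 in B7-2 wells, and 1188 and 1015 in anti-CD3 wells. The 3 groups did not overlap and BTNL2 wells were highest. H2-DMa rose 3.16-fold with BTNL2 (1.66 ± 0.11, adjusted p = 9.4e-05), fell 2.0-fold with B7-2 (-1.0 ± 0.11, adjusted p = 0.00108), and was 1.58-fold higher in BTNL2 than in anti-CD3 wells (0.66 ± 0.11, adjusted p = 0.0034). The beta chain genes differed from it in that last comparison. H2-DMb1 read 117 and 127 in BTNL2 wells, 57.2 and 61.5 in B7-2 wells, and 142 and 133 in anti-CD3 wells. H2-DMb2 read 229 and 239 in BTNL2 wells, 103 and 102 in B7-2 wells, and 214 and 230.4 in anti-CD3 wells. H2-DMb1 rose 2.06-fold and H2-DMb2 2.28-fold with BTNL2 (adjusted p = 0.000408 and 0.000166), and they fell 2.31-fold and 2.16-fold with B7-2 (adjusted p = 0.000443 and 0.000445). Between BTNL2 and anti-CD3 wells they gave -0.17 and 0.08 (adjusted p = 0.241 and 0.589).

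H2-DO, made of H2-Oa and H2-Ob, inhibits H2-DM. H2-Ob read 73.3 and 58.4 in BTNL2 wells, 29.5 and 29.8 in B7-2 wells, and 110.1 and 98.02 in anti-CD3 wells, with no overlap and with B7-2 wells lowest. H2-Ob rose 2.20-fold with BTNL2 (1.14 ± 0.13, adjusted p = 0.00102), fell 3.5-fold with B7-2 (-1.81 ± 0.13, adjusted p = 0.000328), and was 1.59-fold lower in BTNL2 than in anti-CD3 wells (-0.67 ± 0.13, adjusted p = 0.00704; 0.0502 without anti-CD3 replicate 1). Its partner H2-Oa read 212 and 208 in BTNL2 wells, 227 and 235 in B7-2 wells, and 513 and 471 in anti-CD3 wells. Here the anti-CD3 arrays stood apart, above all others. H2-Oa fell 2.13-fold with B7-2 (-1.09 ± 0.09, adjusted p = 0.000462) and was 2.34-fold lower in BTNL2 than in anti-CD3 wells (-1.23 ± 0.09, adjusted p = 0.000113), and its change with BTNL2 added to B7-2 was -0.14 ± 0.09 (adjusted p = 0.358). Apart from the dim H2-Ea and H2-Eb2, H2-Oa and H2-Ab1 were the class II genes not called higher with BTNL2 over B7-2.

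**Figure D2:**
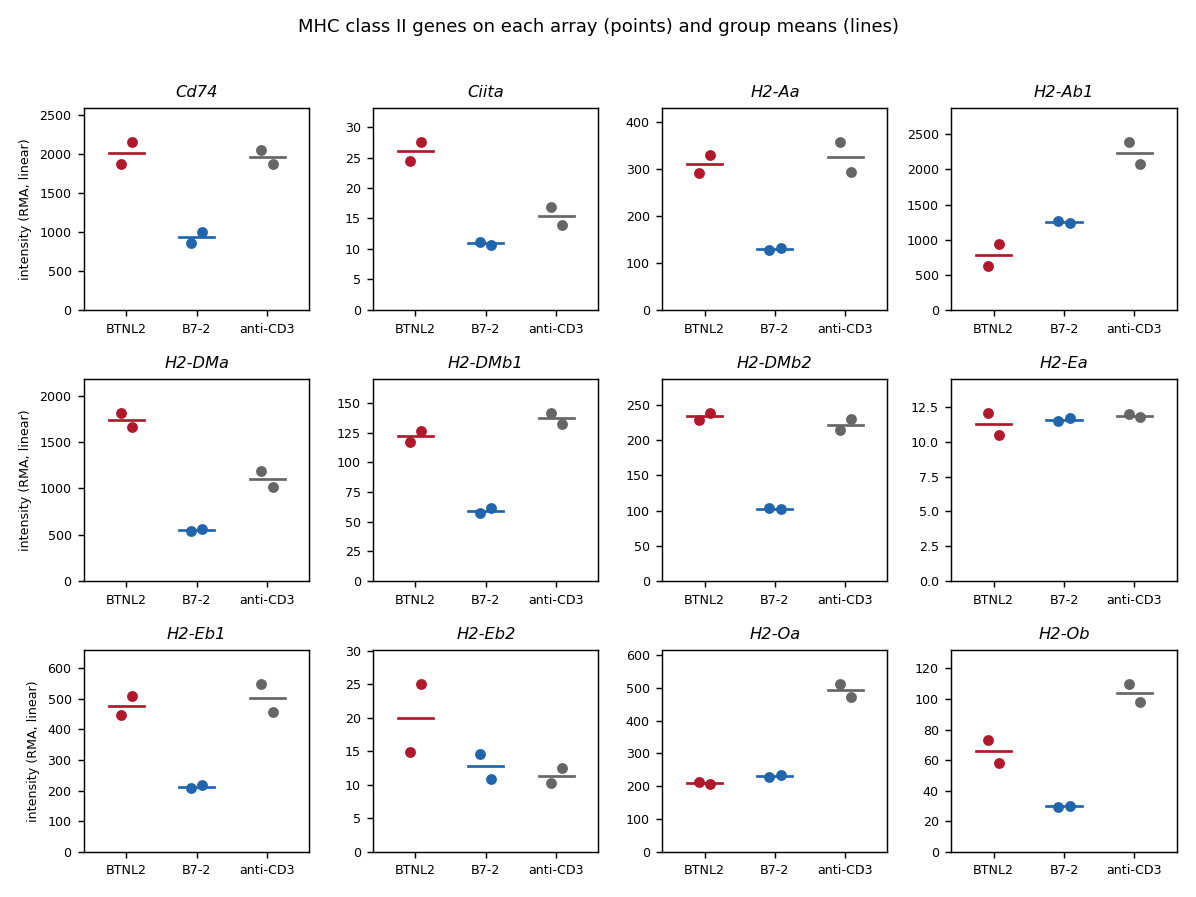
RMA intensity (vertical axis, linear, from 0) of class II genes on each array, with BTNL2, B7-2 and anti-CD3 wells from left to right. Points are arrays, 2 a group, and lines are group means; H2-Aa, H2-Eb1 and Cd74 are low in B7-2 wells alone, whereas H2-Ab1 is lowest in BTNL2 wells and H2-Oa is low in both.

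Promoters of class II genes share a module of S, X and Y boxes, bound by the RFX complex, CREB1 and NF-Y, on which CIITA docks. The stretches below show the Y box of 6 class II genes with the 45 bases before it and 10 after, from RefSeq promoter windows on GRCm38.p6 that run from 250 bases before to 50 after the start of the gene. They were chosen so that members that differ in their changes can be read side by side. Capitals mark TGATTGG, the Y box letters, and each line runs 5′ to 3′ on the strand of the gene.
H2-Aa: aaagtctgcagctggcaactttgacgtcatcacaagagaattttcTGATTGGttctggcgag
H2-Eb1: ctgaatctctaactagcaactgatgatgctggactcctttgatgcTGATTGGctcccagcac
H2-DMb1: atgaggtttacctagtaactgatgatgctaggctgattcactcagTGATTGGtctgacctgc
H2-DMb2: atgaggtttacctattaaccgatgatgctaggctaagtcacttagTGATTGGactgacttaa
H2-Ob: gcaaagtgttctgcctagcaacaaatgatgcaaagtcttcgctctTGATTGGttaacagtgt
H2-Oa: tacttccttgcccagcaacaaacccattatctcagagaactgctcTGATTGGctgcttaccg

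These stretches lie at chr17:34287857-34287918 on the minus strand for H2-Aa, and on the plus strand at chr17:34305761-34305822 for H2-Eb1, chr17:34153083-34153144 for H2-DMb1, chr17:34145112-34145173 for H2-DMb2, chr17:34238801-34238862 for H2-Ob and chr17:34092289-34092350 for H2-Oa. In all, 8 of the 12 class II genes had a window, and 7 of these held TGATTGG or its reverse complement CCAATCA (all but H2-DMa). Of all 27025 genes with a window, 9.0% held these letters in any of their windows, searched on both strands (7.82% of all 32851 windows). H2-Oa, which was not called with BTNL2 over B7-2, holds the same letters as H2-Ob, H2-Aa and H2-Eb1, which rose. The motifs were chosen with the sequences in view, and a match describes letters only.

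**Figure D3:**
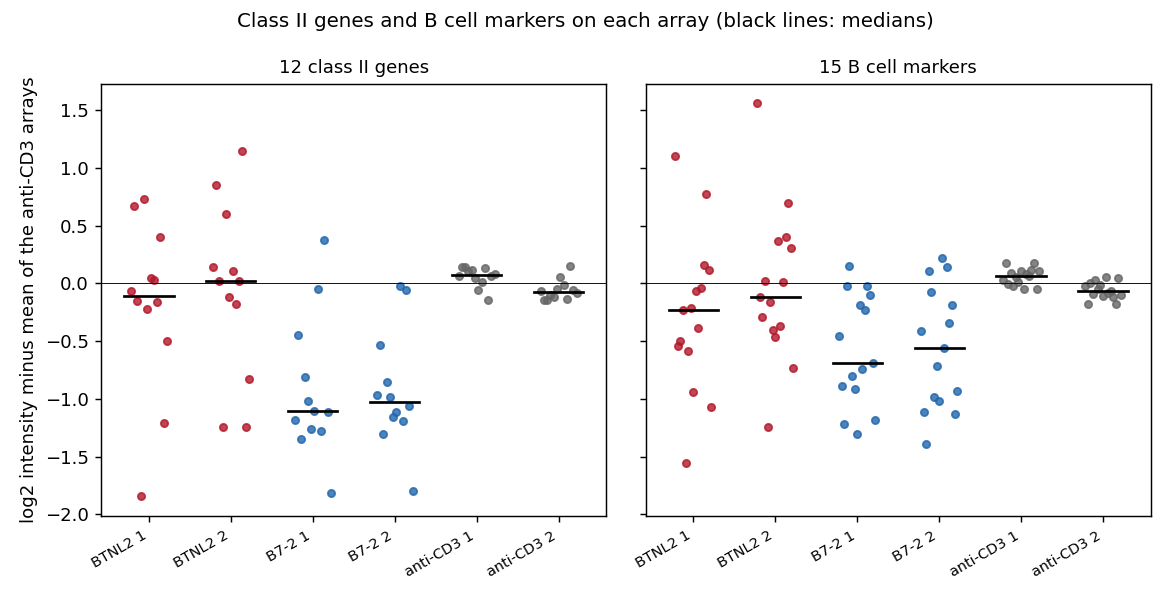
Log2 intensity minus the mean of the 2 anti-CD3 arrays (vertical axis) for the 12 class II genes (left) and 15 B cell markers (right) on each of the 6 arrays. Points are genes and black lines medians; the class II medians are -0.11 and 0.02 on BTNL2 arrays, -1.11 and -1.02 on B7-2 arrays, and 0.07 and -0.07 on anti-CD3 arrays, and the B cell medians are lowest on the B7-2 arrays too.

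Markers of B cells, which express class II genes strongly, moved mostly in the same directions with BTNL2 over B7-2 and with B7-2 over anti-CD3. Of 15 measured B cell markers 6 rose and 1 fell with BTNL2 added to B7-2, 46.7% called (median log2 change 0.46). With B7-2 added to anti-CD3, 0 rose and 8 fell, 53.3% called (median -0.65). Between BTNL2 and anti-CD3 wells 2 were higher and 5 lower, 46.7% called, with a median of -0.31 where class II genes had -0.07. Shares over all genes were 20.4%, 24.5% and 30.4%. Their summed intensity was 1388 and 1740 on BTNL2 arrays, 1087 and 1121 on B7-2 arrays, and 2069 and 1885 on anti-CD3 arrays. Ms4a1, which encodes CD20, read 280.2 and 384 in BTNL2 wells, 95.3 and 97.8 in B7-2 wells, and 133 and 128 in anti-CD3 wells, and rose with BTNL2 (1.76, adjusted p = 0.000283). Its B7-2 and anti-CD3 values differed less (-0.43, adjusted p = 0.0765), and it was higher in BTNL2 than in anti-CD3 wells (1.33, adjusted p = 0.000654). Cd79b, a chain of the B cell receptor complex, read 196 and 226 in BTNL2 wells, 119 and 105 in B7-2 wells, and 276 and 277 in anti-CD3 wells; it rose with BTNL2 (0.91, adjusted p = 0.00137) and fell with B7-2 (-1.31, adjusted p = 0.00049). Cd79b was lowest in B7-2 wells, as were most class II genes, whereas Ms4a1 stood out in BTNL2 wells. Pou2af1, another of the markers, read 396 and 499 in BTNL2 wells, 366 and 434 in B7-2 wells, and 893 and 773 in anti-CD3 wells. It fell with B7-2 (-1.06, adjusted p = 0.00277) and was not called with BTNL2 added (0.16, adjusted p = 0.536). Ebf1, a transcription factor of early B cells, read 49.6 and 61.5 in BTNL2 wells, 161 and 138 in B7-2 wells, and 143 and 148 in anti-CD3 wells, and fell with BTNL2 (-1.43, adjusted p = 0.000414). Pax5, the defining B cell factor, read 6.33 to 8.01 on all 6 arrays, close to the nonspecific controls, and Ighm read 13.1 to 17.0, and neither was called. The part of B cells in the class II values was not tested.

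Markers of dendritic and myeloid cells were summed at 1303 and 1283 on BTNL2 arrays, 1880 and 1826 on B7-2 arrays, and 1779 and 1891 on anti-CD3 arrays. The sums were lowest on BTNL2 arrays and overlapped between B7-2 and anti-CD3 arrays, and most of each sum was Cst3, which encodes cystatin C. Of 14 measured markers 1 rose and 3 fell with BTNL2 over B7-2, 28.6% called against 20.4% of all genes. With B7-2 over anti-CD3, 0 rose and 2 fell, 14.3% called against 24.5% of all genes. Zbtb46 was the marker that rose with BTNL2 (0.65, limma adjusted p = 0.00672). Cst3, Cd68 and Cd86 fell with BTNL2 (-0.59, -0.63 and -0.43, adjusted p = 0.00396, 0.00893 and 0.0345). Cd68 and Cd86 were those that fell with B7-2 (-0.63 and -0.39, adjusted p = 0.00763 and 0.0428). Itgax, which encodes CD11c, read 12.0 to 13.9 on all 6 arrays and Csf1r 16.8 to 21.5, and neither was called. CD8 T cell and NK cell markers were summed at 3388 and 2936 on BTNL2 arrays, 510.2 and 491 on B7-2 arrays, and 827 and 878 on anti-CD3 arrays. On BTNL2 arrays Eomes read 1337 and 991 and Cd8a 987 and 924, together most of each sum. With BTNL2 over B7-2, 7 of 12 rose, 0 fell and 5 were not called, 58.3% called against 20.4% of all genes. With B7-2 over anti-CD3, 1 rose and 5 fell, 50% called against 24.5% of all genes. In BTNL2 wells against anti-CD3 wells 8 were higher and 0 lower, 66.7% called against 30.4%. Cd8a fell with B7-2 (-1.47, adjusted p = 0.000273) and rose with BTNL2 (3.08, adjusted p = 8.4e-06), the directions of most class II genes. Of 11 T cell genes 2 rose and 2 fell with BTNL2 over B7-2, 36.4% called. In BTNL2 wells against anti-CD3 wells 2 were higher and 6 lower, 72.7% called against 30.4% of all genes. Cd3e, a chain of the T cell receptor complex, read 3552 and 3567 in BTNL2 wells, 2984 and 3557 in B7-2 wells, and 4133 and 3889 in anti-CD3 wells. The 3 called genes of smallest p with BTNL2 over B7-2 were Cd5 and Cd28, which fell (-1.01 and -0.75, adjusted p = 0.000318 and 0.00225), and Lat, which rose (0.40, adjusted p = 0.0161). The part of these cell types in the values of the 36 genes was not tested.

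Class I genes moved in both directions. With BTNL2 added to B7-2, 3 of the 16 genes rose and 3 fell, 37.5% called, with a median log2 change of 0.12. With B7-2 added to anti-CD3, 0 rose and 7 fell, 43.8% called, with a median of -0.30. In BTNL2 wells against anti-CD3 wells 2 were higher and 5 lower, 43.8% called, with a median of -0.04. Over all genes 20.4%, 24.5% and 30.4% were called in these comparisons in this order. With dim genes dropped the shares over all genes were 32.4%, 38.8% and 45.7%, close to those of class I. The 7 falls with B7-2 became 3 without anti-CD3 replicate 1, 4 without anti-CD3 replicate 2, 4 without B7-2 replicate 1 and 5 without B7-2 replicate 2; over all genes the calls went down too, to between 2454 and 2722 in place of 4190. Without either anti-CD3 array 4 of the 7 calls between BTNL2 and anti-CD3 wells were left.

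Nlrc5, the class I transactivator, read 2754 and 2395 in BTNL2 wells, 1382 and 1475 in B7-2 wells, and 1981 and 1963 in anti-CD3 wells. The groups did not overlap, with BTNL2 wells highest and B7-2 wells lowest. Nlrc5 rose 1.8-fold with BTNL2 (0.85 ± 0.10, adjusted p = 0.00136), fell 1.38-fold with B7-2 (-0.47 ± 0.10, adjusted p = 0.0157), and was 1.30-fold higher in BTNL2 than in anti-CD3 wells (0.38 ± 0.10, adjusted p = 0.0271). The last 2 calls were lost in 3 fits each that left out 1 array (adjusted p = 0.0703 to 0.126).

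The classical heavy chains H2-K1 and H2-D1, which present peptide to CD8 T cells, were not called in any comparison. H2-K1 read 2273 and 2185 in BTNL2 wells, 1878 and 2031 in B7-2 wells, and 2311 and 2352 in anti-CD3 wells. H2-D1 read 2867 and 2550.1 in BTNL2 wells, 2377 and 2298 in B7-2 wells, and 2825 and 2809.7 in anti-CD3 wells. B7-2 arrays were lowest for both genes, without overlap with either other group. Most genes of the array do not overlap either, at 58.9% against BTNL2 wells and 60.1% against anti-CD3 wells. The changes with BTNL2 were 0.19 ± 0.09 for H2-K1 and 0.21 ± 0.09 for H2-D1 (adjusted p = 0.195 and 0.178), and with B7-2 they were -0.26 ± 0.09 and -0.27 ± 0.09 (0.0817 and 0.0831). With an intensity trend in the prior variance H2-K1 and H2-D1 were called higher with BTNL2 (adjusted p = 0.0174 and 0.0126) and lower with B7-2 (0.00212 and 0.00197). An offset of 16 before the log also called both lower with B7-2 (0.0194 and 0.0271), and H2-K1 was called lower with dim genes left out (0.0462) and with the mean of its probe sets (0.0284). Heavy chain genes are near-identical over long stretches and their chosen probe sets carry suffixes that mark probes shared between transcripts, so signal may be exchanged between them. The 5 probe sets annotated to H2-K1 and H2-D1 together, which are outside the rule, changed by -0.03 to 0.31 with BTNL2 and were not called.

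The largest changes of the class were in the Q region, which encodes nonclassical class I molecules. H2-Q10, best known as a secreted class I molecule of the liver, read 27.6 and 45.03 in BTNL2 wells, 269 and 228 in B7-2 wells, and 557 and 542 in anti-CD3 wells. The groups stood in that order with wide gaps. H2-Q10 fell 7.03-fold with BTNL2 added to B7-2 (-2.81 ± 0.22, adjusted p = 0.000192), fell 2.22-fold with B7-2 added to anti-CD3 (-1.15 ± 0.22, adjusted p = 0.0088; 0.0521 without anti-CD3 replicate 1), and was 15.6-fold lower in BTNL2 than in anti-CD3 wells (-3.96 ± 0.22, adjusted p = 3.9e-05). H2-Q1 followed the same order, at 3.87 and 3.70 in BTNL2 wells, 14.9 and 9.87 in B7-2 wells, and 79.3 and 75.4 in anti-CD3 wells. Both BTNL2 values lay within the range of the nonspecific controls, so the falls are bounds: H2-Q1 was at least 2.31-fold lower in BTNL2 than in B7-2 wells (adjusted p = 0.000842) and at least 14.7-fold lower in BTNL2 than in anti-CD3 wells (adjusted p = 1.5e-05), with each bound taken at the highest nonspecific control of the BTNL2 arrays. H2-Q1 fell 6.37-fold with B7-2 added to anti-CD3 (-2.67 ± 0.18, adjusted p = 0.000279; -1.72 with an offset of 16 before the log).

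H2-Q4 moved the other way with BTNL2. It read 1010.4 and 916 in BTNL2 wells, 605 and 608 in B7-2 wells, and 862 and 993 in anti-CD3 wells, so BTNL2 and anti-CD3 values overlapped above the B7-2 values. H2-Q4 rose 1.59-fold with BTNL2 (0.67 ± 0.11, adjusted p = 0.00488) and fell 1.52-fold with B7-2 (-0.61 ± 0.11, adjusted p = 0.00631). H2-Q5, listed by RefSeq as a transcribed pseudogene, read 99.6 and 87.7 in BTNL2 wells, 88.3 and 97.6 in B7-2 wells, and 173 and 153 in anti-CD3 wells. Its BTNL2 and B7-2 values overlapped (0.01, adjusted p = 0.971), and it fell 1.75-fold with B7-2 (-0.81 ± 0.11, adjusted p = 0.00274; -0.46 as the mean of its probe sets). It was 1.74-fold lower in BTNL2 than in anti-CD3 wells (-0.80, adjusted p = 0.00182).

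H2-T23 encodes Qa-1, which presents leader peptides of class I chains to NKG2A and NKG2C receptors. It read 1439 and 1566 in BTNL2 wells, 2119 and 2076 in B7-2 wells, and 2791 and 2699 in anti-CD3 wells, in that order and without overlap. H2-T23 fell 1.40-fold with BTNL2 (-0.48 ± 0.09, adjusted p = 0.00956), fell 1.31-fold with B7-2 (-0.39 ± 0.09, adjusted p = 0.0198), and was 1.83-fold lower in BTNL2 than in anti-CD3 wells (-0.87 ± 0.09, adjusted p = 0.000474). Its second, dimmer probe set was called in the same directions at -0.97, -1.03 and -2.00, so the size of these falls depends on the probe set. The fall with BTNL2 was lost without B7-2 replicate 1 or BTNL2 replicate 1 (adjusted p = 0.0549 and 0.0553), and the fall with B7-2 was lost whichever of the 4 arrays compared was left out (0.0715 to 0.103).

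The other called class I genes are named with their values in view. H2-M3, which presents formylated peptides, rose with BTNL2 (0.38 ± 0.10, adjusted p = 0.0418), at 283 and 241 in BTNL2 wells against 204 and 196 in B7-2 wells. That call was lost with only the 4 arrays compared (adjusted p = 0.0712), with the replicate block (0.0569), with every probe set tested (0.0617) and in 5 of the 6 fits that left out 1 array (0.0712 to 0.179). H2-T10 fell with B7-2 (-0.36 ± 0.09, adjusted p = 0.0276; 0.0921 to 0.129 without 1 of the 4 arrays compared). H2-T24 was higher in BTNL2 than in anti-CD3 wells (0.42 ± 0.11, adjusted p = 0.0255), a call lost in 3 fits that left out 1 array (0.0895 to 0.12). H2-Bl read 24.6 and 18.7 in BTNL2 wells, 25.7 and 32.1 in B7-2 wells, and 31.4 and 30.5 in anti-CD3 wells. It was lower in BTNL2 than in anti-CD3 wells (-0.53 ± 0.16, adjusted p = 0.0436). That call was lost with the replicate block (0.0603), with every probe set tested (0.0541) and with a repeated quantile normalization (0.0506). The change was -0.33 without BTNL2 replicate 2. H2-Bl and H2-T10 are listed by RefSeq as transcribed pseudogenes. H2-T3, H2-Q2, H2-M9 and H2-M10.1 read between 5.33 and 19.8 on all arrays and were not called; all but H2-T3 lay below the array median throughout.

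**Figure D4:**
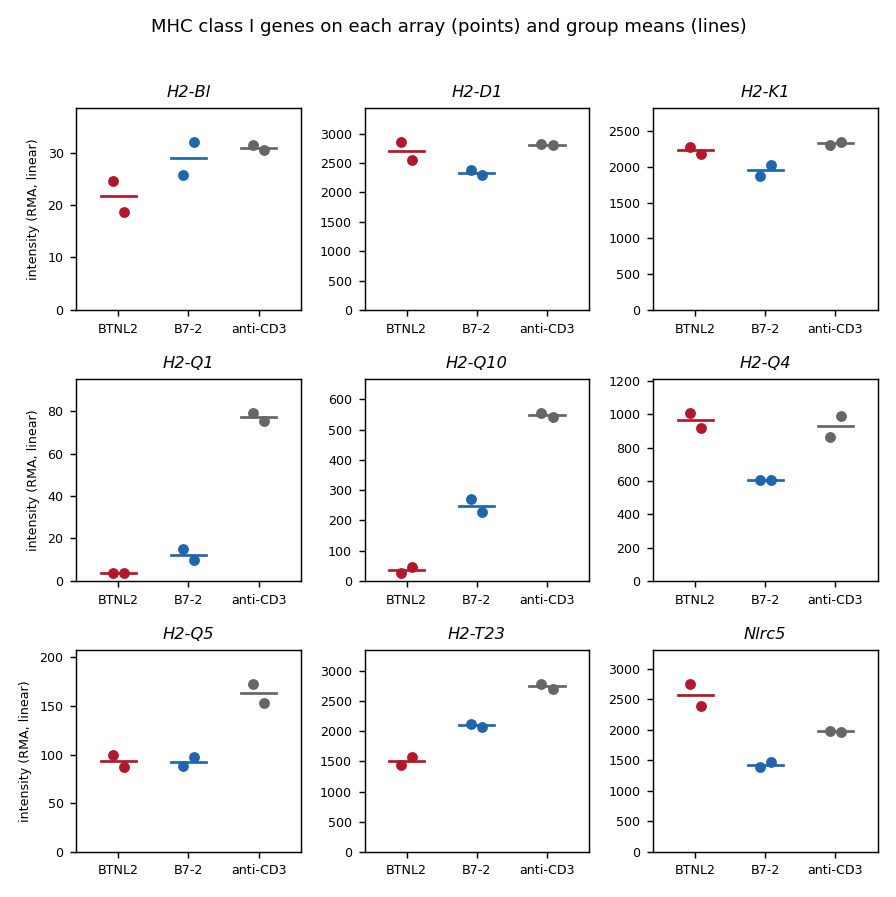
RMA intensity (vertical axis, linear, from 0) of 9 class I genes on each array, with BTNL2, B7-2 and anti-CD3 wells from left to right. Points are arrays, 2 a group, and lines are group means; H2-Q1, H2-Q10 and H2-T23 are lowest in BTNL2 wells, whereas Nlrc5 and H2-Q4 are lowest in B7-2 wells.

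Class I promoters carry an enhancer with a kB site next to an interferon response element, followed by a module related to that of class II genes. The stretches below show these elements in H2-K1, H2-D1, H2-Q4 and H2-Q10, the last of which fell with BTNL2 whereas H2-Q4 rose. They come from the same RefSeq windows, run 5′ to 3′ on the strand of the gene, and begin 40 bases before the IRF match. Capitals mark the kB letters GGGATTNCC, the IRF letters in reverse (TTTCNNTT) and the Y box in reverse (CCAATCA).
H2-K1: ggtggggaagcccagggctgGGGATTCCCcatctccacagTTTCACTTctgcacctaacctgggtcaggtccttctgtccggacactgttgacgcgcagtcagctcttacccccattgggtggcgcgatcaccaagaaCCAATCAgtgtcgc
H2-D1: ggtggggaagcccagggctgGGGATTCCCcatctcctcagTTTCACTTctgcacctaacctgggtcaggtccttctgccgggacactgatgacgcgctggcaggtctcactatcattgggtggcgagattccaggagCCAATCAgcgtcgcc
H2-Q4: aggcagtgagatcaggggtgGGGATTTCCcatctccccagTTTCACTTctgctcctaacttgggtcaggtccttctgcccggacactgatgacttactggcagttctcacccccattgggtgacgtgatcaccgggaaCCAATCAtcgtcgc
H2-Q10: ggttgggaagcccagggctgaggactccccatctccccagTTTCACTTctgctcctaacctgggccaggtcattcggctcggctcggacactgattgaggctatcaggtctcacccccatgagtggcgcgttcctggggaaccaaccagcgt

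The stretches lie on GRCm38.p6 at chr17:34000326-34000477 on the minus strand for H2-K1, and on the plus strand at chr17:35262904-35263055 for H2-D1, chr17:35379424-35379575 for H2-Q4 and chr17:35469894-35470045 for H2-Q10. H2-Q10 holds the IRF letters, on which all the stretches were aligned, and neither the kB nor the Y box letters. Over both strands of the windows of 10 class I genes, the IRF letters AANNGAAA were in 9, the Y box letters in 6 and the kB letters in 3 (H2-K1, H2-D1 and H2-Q4). Of all 27025 genes with a window, 26.7% held the IRF letters in any of their windows, 9.0% the Y box letters and 1.12% the kB letters. The shares of all 32851 windows were 23.9%, 7.82% and 0.938%. The windows of class I genes resemble each other in sequence, so these counts are not independent. H2-K1 and H2-D1, which were not called, and H2-Q4, which rose with BTNL2, hold all 3 motifs. H2-T23, which fell with BTNL2, holds the IRF and Y box letters. H2-M3, which was called higher with BTNL2, holds the IRF letters and neither the kB nor the Y box letters. The part of these motifs in the changes was not tested.

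Most processing genes were higher in BTNL2 wells than in either other group, and few differed between B7-2 and anti-CD3 wells. With BTNL2 added to B7-2, 5 of the 8 rose and 0 fell, 62.5% called, with a median log2 change of 0.41. With B7-2 added to anti-CD3, 0 rose and 2 fell, 25% called, close to the 24.5% of all genes, with a median of -0.01. In BTNL2 wells against anti-CD3 wells 5 were higher and 0 lower, 62.5% called, with a median of 0.43. The shares over all genes were 20.4% for BTNL2 over B7-2 and 30.4% for BTNL2 over anti-CD3, and 32.4% and 45.7% with dim genes dropped. The summed intensity of the 8 genes was 23018 and 23057 on BTNL2 arrays, 17662 and 17139 on B7-2 arrays, and 18158 and 19040.3 on anti-CD3 arrays. The 5 rises with BTNL2 became 3 without B7-2 replicate 2 and 3 without BTNL2 replicate 1, and the 2 falls with B7-2 became 0 without anti-CD3 replicate 1 and 1 when any other array of that comparison was left out.

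Tapbp encodes tapasin, which holds empty class I molecules at the peptide transporter. It read 4499 and 4467 in BTNL2 wells, 2417 and 2471 in B7-2 wells, and 3344 and 3299 in anti-CD3 wells, with wide gaps between the groups. Tapbp rose 1.83-fold with BTNL2 (0.88 ± 0.08, adjusted p = 0.000463), fell 1.36-fold with B7-2 (-0.44 ± 0.08, adjusted p = 0.00846), and was 1.35-fold higher in BTNL2 than in anti-CD3 wells (0.43 ± 0.08, adjusted p = 0.00683). The fall was lost with the mean of its probe sets (-0.28, adjusted p = 0.06) and without anti-CD3 replicate 1 (0.0533). Tapbpl encodes TAPBPR, a tapasin-related peptide editor. It read 399 and 375 in BTNL2 wells, 285 and 269 in B7-2 wells, and 276 and 284 in anti-CD3 wells, with only the BTNL2 arrays apart. Tapbpl rose 1.40-fold with BTNL2 (0.48 ± 0.09, adjusted p = 0.0094; 0.057 without B7-2 replicate 2 and 0.0545 without BTNL2 replicate 1). It was 1.38-fold higher in BTNL2 than in anti-CD3 wells (0.46 ± 0.09, adjusted p = 0.00682; 0.27 and 0.0793 with the mean of its probe sets).

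Erap1, the aminopeptidase that trims peptides in the endoplasmic reticulum, read 974 and 938 in BTNL2 wells, 644 and 633 in B7-2 wells, and 573 and 593 in anti-CD3 wells. BTNL2 arrays were highest by a wide margin. Erap1 rose 1.5-fold with BTNL2 (0.58 ± 0.08, adjusted p = 0.00331; 0.88 as the mean of its probe sets) and was 1.64-fold higher in BTNL2 than in anti-CD3 wells (0.71 ± 0.08, adjusted p = 0.000857). Its change with B7-2 was 0.13 (adjusted p = 0.331).

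The immunoproteasome replaces the 3 catalytic subunits of the standard proteasome by those of Psmb8, Psmb9 and Psmb10. Psmb10 read 2275 and 2369 in BTNL2 wells, 1529 and 1466 in B7-2 wells, and 1357 and 1456 in anti-CD3 wells. The BTNL2 arrays stood apart. Psmb10 rose 1.55-fold with BTNL2 (0.63 ± 0.09, adjusted p = 0.00286) and was 1.65-fold higher in BTNL2 than in anti-CD3 wells (0.72 ± 0.09, adjusted p = 0.001). Psmb8 read 3822 and 4137 in BTNL2 wells, 3418 and 3281 in B7-2 wells, and 3321 and 3357 in anti-CD3 wells. BTNL2 arrays were again highest, but Psmb8 was not called (0.25 ± 0.09, adjusted p = 0.0994 with BTNL2 over B7-2; 0.00138 with an intensity trend in the prior variance).

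Psmb9 read 2209.6 and 2154 in BTNL2 wells, 1822 and 1725 in B7-2 wells, and 2281 and 2396 in anti-CD3 wells on the probe set that the rule chose. B7-2 arrays were lowest. The change was 0.30 ± 0.09 with BTNL2 (adjusted p = 0.0527), and Psmb9 fell 1.32-fold with B7-2 (-0.40 ± 0.09, adjusted p = 0.016), a call lost whichever of the 4 arrays compared was left out (0.05 to 0.0898). This probe set is assigned to Psmb9 by the platform annotation alone, since its accession is not among the RefSeq transcripts of the gene. The probe set designed on the RefSeq transcript rose with BTNL2 (0.42, adjusted p = 0.0368 over all probe sets) and was not called with B7-2 (-0.32, adjusted p = 0.0792). Psmb9 was also called higher with BTNL2 with an intensity trend in the prior variance (adjusted p = 0.000651), an offset of 16 (0.0106) and dim genes left out (0.0292). The mean of its probe sets (0.0411) and a repeated quantile normalization (0.047) did the same. Which of the 2 comparisons is called therefore depends on the probe set and the setting.

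Psme1 and Psme2 encode the subunits of the PA28 activator, which opens the proteasome core. Psme1 read 5189 and 5071 in BTNL2 wells, 4641 and 4501 in B7-2 wells, and 4424 and 4884 in anti-CD3 wells, and was not called (0.17, adjusted p = 0.269 with BTNL2 over B7-2). Psme2 read 3651 and 3546 in BTNL2 wells, 2907 and 2793 in B7-2 wells, and 2582 and 2771 in anti-CD3 wells. For both genes the BTNL2 arrays were the highest. Psme2 rose 1.26-fold with BTNL2 (0.34 ± 0.09, adjusted p = 0.0366), a call lost with only the 4 arrays compared, with the replicate block (0.0661) and whichever array was left out (0.0573 to 0.148). It was 1.35-fold higher in BTNL2 than in anti-CD3 wells (0.43 ± 0.09, adjusted p = 0.00962; 0.0654 without anti-CD3 replicate 1).

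**Figure D5:**
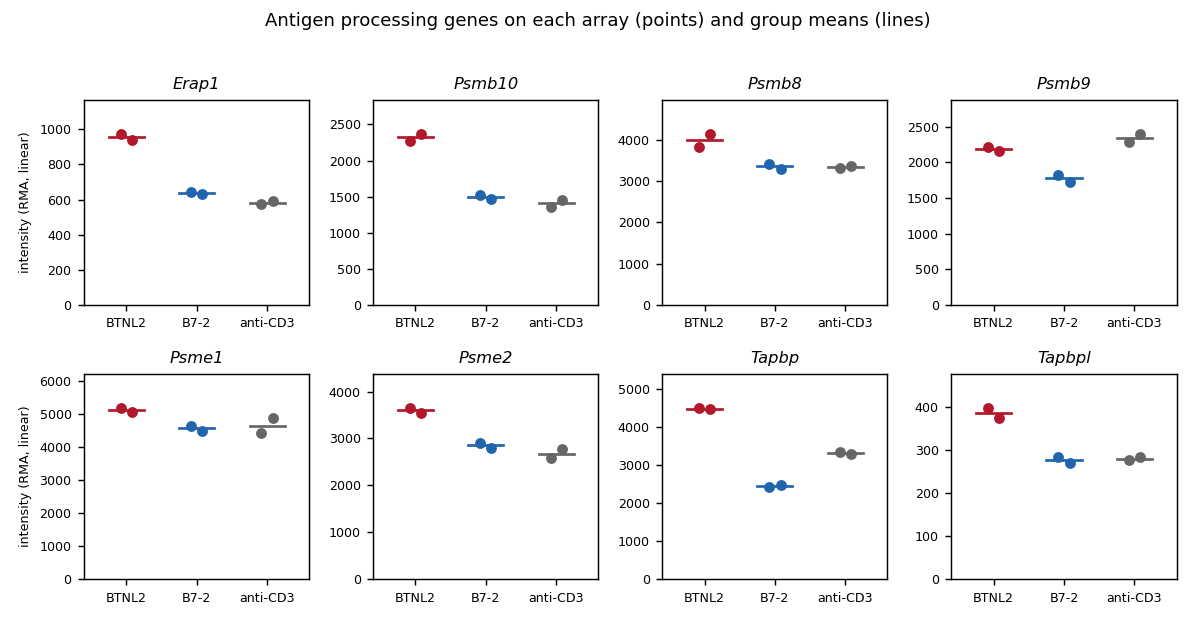
RMA intensity (vertical axis, linear, from 0) of the 8 processing genes on each array, with BTNL2, B7-2 and anti-CD3 wells from left to right. Points are arrays, 2 a group, and lines are group means; BTNL2 wells are highest for every gene but Psmb9.

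The rest of the presentation pathway was read from lists chosen with earlier results known. Their counts stand beside shares over all genes of 20.4% for BTNL2 over B7-2, 24.5% for B7-2 over anti-CD3 and 30.4% for BTNL2 over anti-CD3. Of 17 measured subunits and activators of the standard proteasome, 0 rose and 0 fell with BTNL2 over B7-2 by limma (median 0.09), with 2 higher and 1 lower at an unadjusted p under 0.05. Psmb5, Psmb6 and Psmb7, the catalytic subunits that the immunoproteasome replaces, changed by 0.14, 0.06 and 0.10 (limma adjusted p = 0.305, 0.707 and 0.486). With B7-2 over anti-CD3, 3 of the 17 rose (Psme3, Psma5 and Psmb2), 17.6% called, and 7 were higher in BTNL2 than in anti-CD3 wells, 41.2% called. Of 6 chaperones of the endoplasmic reticulum that help class I fold, 1 rose and 5 were not called with BTNL2 over B7-2. That is 16.7% called, below the 20.4% of all genes. Pdia3, the partner of tapasin, was the gene that rose (0.95 for BTNL2 over B7-2, adjusted p = 0.00336). It read 62.9 and 53.8 in BTNL2 wells, 30.8 and 29.4 in B7-2 wells, and 24.5 and 31.2 in anti-CD3 wells, the last 2 groups not far above the array medians.

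Of 9 genes of lysosomal antigen processing, 2 rose and 2 fell with BTNL2 over B7-2, 44.4% called against 20.4% of all genes. Ctss, the cathepsin that degrades the invariant chain in antigen-presenting cells, read 1972 and 1511 in BTNL2 wells, 814 and 902 in B7-2 wells, and 920.1 and 833 in anti-CD3 wells, and rose (1.01, adjusted p = 0.00287). Ifi30, a thiol reductase of lysosomes, rose by 0.58 (adjusted p = 0.00334). Ctsl, another cathepsin, read 28.9 and 21.9 in BTNL2 wells, 56.1 and 64.2 in B7-2 wells, and 61.6 and 66.9 in anti-CD3 wells, and fell (-1.25, adjusted p = 0.00128), as did Ctsz (-0.58, adjusted p = 0.0049). With B7-2 over anti-CD3, 1 gene fell, Marchf8, a ubiquitin ligase of membrane proteins (-0.68, adjusted p = 0.00404). That is 11.1% called, below the 24.5% of all genes.

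Of 7 factors that bind class II promoters, 3 rose and 1 fell with BTNL2 over B7-2, 57.1% called against 20.4% of all genes. Creb1, Nfyc and Nfya were higher at 0.63, 0.45 and 0.40 (adjusted p = 0.00942, 0.0104 and 0.0194), and Rfxap was lower at -0.53 (0.0163). Rfx5 and Rfxank, subunits of the RFX complex, fell with B7-2 over anti-CD3 (-0.80 and -0.75, adjusted p = 0.00164 and 0.00396). They were the only calls of the list there, 28.6% against 24.5% of all genes. Rfx5 read 536 and 500.5 in BTNL2 wells, 430.0 and 466 in B7-2 wells, and 811 and 746 in anti-CD3 wells, so both groups with B7-2 lay below anti-CD3 wells.

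Interferon gamma induces many genes of antigen presentation. Ifng read 2899.6 and 2529.6 in BTNL2 wells, 1295 and 1216 in B7-2 wells, and 242 and 286 in anti-CD3 wells. Most class II genes were instead lowest in B7-2 wells. Among processing genes, the means of Erap1, Psmb8, Psmb10 and Psme2 stood in the order of Ifng. No call separated B7-2 from anti-CD3 wells for these processing genes. Ifng rose with BTNL2 (1.11, adjusted p = 0.000837) and with B7-2 (2.26, adjusted p = 0.000166). Of 16 measured genes of interferon signalling, 10 rose and 2 fell with BTNL2 over B7-2 (median 0.49), 75% called against 20.4% of all genes. With B7-2 over anti-CD3, 1 rose and 8 fell (median -0.41), 56.2% called against 24.5% of all genes. Irf7, an interferon-induced transcription factor, read 131 and 132 in BTNL2 wells, 29.5 and 25.9 in B7-2 wells, and 47.1 and 45.5 in anti-CD3 wells. It rose with BTNL2 (2.25, adjusted p = 2.2e-05) and fell with B7-2 (-0.74, adjusted p = 0.00209). Ifngr1, the ligand-binding chain of the interferon gamma receptor, read 181 and 192 in BTNL2 wells, 88.1 and 90.2 in B7-2 wells, and 161 and 140.4 in anti-CD3 wells, and was called higher with BTNL2 (1.07, adjusted p = 0.000459) and lower with B7-2 (-0.76, adjusted p = 0.00224). Jak1, a kinase of that receptor, gave 0.74 and -0.77 in the same comparisons (adjusted p = 0.00167 and 0.00156). The 2 genes of the list that fell with BTNL2 over B7-2, named after their values were seen, were Jak2, the other kinase of that receptor (-0.61, adjusted p = 0.00281), and Socs3, an inhibitor of cytokine signalling (-0.62, adjusted p = 0.00382). Jak2 read 2140.0 and 2263 in BTNL2 wells, 3334 and 3386 in B7-2 wells, and 4118 and 4006 in anti-CD3 wells. The part of any of these factors in the changes of MHC genes was not tested.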

How the data were processed

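Messenger RNA of 6 cultures, 2 per coating, was amplified from 50 ng of total RNA and hybridised to 1 array each, per the labels' protocols. The authors deposited 1 linear intensity per probe set and array, made with RMA per the submitters' processing notes. Software, chip definition and genome build: not given in the sources used here. RMA equalises the arrays' distributions, which hides a shift shared by most genes, and compresses changes of dim probe sets. The number of arrays limits the precision.

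All intensities were log2 transformed. Of 45141 probe sets, 104 were controls, 28898 had 1 symbol, 551 several and 15588 none. For 28689 probe sets with 1 symbol the Entrez identifier was found in the GRCm38.p6 table, and the symbol was taken from there. The 36 genes described here kept the symbol of the platform. Taking the probe set of highest mean gave 17097 genes; the 36 genes described here had 65 probe sets. Tests used limma 3.58.1 under R 4.3.3 (eBayes after lmFit, all arrays in 1 fit, no replicate block, two-sided, Benjamini-Hochberg over all genes of a comparison, threshold 0.05), after a check on simulated data. Same-numbered arrays did not deviate together (r of -0.0272, -0.0641 and -0.000967), so the numbers were not taken as pairs. Promoter windows are from RefSeq on GRCm38.p6, and 25 of the 36 genes had one. The gene set and all lists were chosen with earlier results of these data known. Named genes outside the set are up to 3 called genes of smallest p per list and comparison, with standard proteasome subunits and markers that define a cell type. Alternatives changed the variance prior, arrays in the fit, dim genes, scaling, offset, probe sets and replicate block.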

Additional observations from a re-analysis of the deposited data

How the results depend on the processing

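Counts of called genes per class were recomputed under 11 alternatives and with each array left out, where a lone remaining array is assumed to vary like the other groups. For BTNL2 over B7-2, 6 class I, 9 class II and 5 processing genes were called, with 5 to 9, 8 to 9 and 4 to 8 under the alternatives; the 8 processing genes came with an intensity trend in the prior variance. Leaving out 1 array gave 4 to 6, 8 to 9 and 3 to 4. For B7-2 over anti-CD3, the counts of 7, 10 and 2 became 6 to 10, 9 to 10 and 1 to 2 (1 with the mean of all probe sets), and 3 to 8, 8 to 10 and 0 to 2 with 1 array left out. For BTNL2 over anti-CD3, the counts of 7, 5 and 5 became 6 to 8, 5 to 6 and 4 to 7, and 4 to 7, 4 to 6 and 4 to 5. With the replicate block, 5, 9 and 4 genes were called for BTNL2 over B7-2, 7, 10 and 2 for B7-2 over anti-CD3, and 6, 5 and 5 for BTNL2 over anti-CD3; the block ended the calls of Psme2 and H2-M3 for BTNL2 over B7-2 and of H2-Bl for BTNL2 over anti-CD3, and changed no other call of the 36 genes. Testing every probe set was chosen after seeing the data and gave 5, 9 and 4 for BTNL2 over B7-2. Of 1815 recomputed values of the 36 genes 1715 kept their side of the threshold, 69 lost their call and 31 gained one, and 0 changed direction while called. Changes of genes near the nonspecific controls (Ciita, H2-Q1) rest on signal close to background.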

Other observations

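MHC-like molecules encoded outside the MHC were measured for 7 genes. With BTNL2 over B7-2, 3 rose and 1 fell, 57.1% called against 20.4% of all genes. Cd1d1, which presents lipids to NKT cells, read 60.5 and 52.6 in BTNL2 wells, 37.7 and 29.9 in B7-2 wells, and 37.7 and 37.9 in anti-CD3 wells, and rose (0.75, limma adjusted p = 0.00803). Hfe, a regulator of iron uptake, read 19.3 and 20.7 in BTNL2 wells, 15.4 and 14.98 in B7-2 wells, and 30.3 and 31.1 in anti-CD3 wells; it rose with BTNL2 (0.40, adjusted p = 0.0186) and fell with B7-2 (-1.02, adjusted p = 0.000525). Procr, the endothelial protein C receptor, read 38.5 and 27.0 in BTNL2 wells, 51.2 and 53.1 in B7-2 wells, and 12.8 and 12.6 in anti-CD3 wells. It rose with B7-2 (2.04, adjusted p = 0.000443) and fell with BTNL2 added (-0.69, adjusted p = 0.0232) and was highest in B7-2 wells, where most class II genes were lowest.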
